A study of Homo sapiens with 6 samples.

Results

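The genes described here encode the subunits, activators, inhibitor and dedicated assembly factors of the proteasome, and among them the inducible subunits of the immunoproteasome. They were chosen by symbol, as PSM followed by a letter from A to G and a number, and each was read from its brightest probe set naming that gene alone. Of 48 human symbols of this form, 42 were measured among 19775 genes, through 81 of 54613 non-control probe sets. The other 6 are accounted for as follows: PSMA6 and PSME2 lay only in probe sets that name several symbols and were not used, and PSMB11, PSMC5, PSMD7 and PSMD13 were not analysed here. PSME2 belongs to the inducible group, so that group is represented by 4 genes in place of 5.

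The proteasome is the barrel-shaped protease that degrades ubiquitin-tagged proteins. Its core is built of outer alpha and inner beta rings, the beta rings hold the catalytic sites, and a cap of ATPases and non-ATPase subunits recognises, unfolds and feeds in the substrate. In cells exposed to interferon, PSMB8, PSMB9 and PSMB10 take the places of PSMB5, PSMB6 and PSMB7 in newly made cores, and the PSME1 and PSME2 proteins form an activator ring. The resulting immunoproteasome is best known for cutting peptides presented by MHC class I molecules.

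The study compared SNU-449 cells, a human hepatocellular carcinoma line, labelled as stably overexpressing USP48, a ubiquitin-specific protease, with SNU-449 cells labelled as carrying an empty vector, on 3 arrays each. Per the labels' protocol the cells were infected with a lentivirus carrying USP48 and selected with puromycin, while the array titles call both groups transfected. The promoter of the transgene, and whether the line was a pool or a single clone, were not stated. Nothing in the labels ties the 3 arrays of a group to different cultures, and the p-values below therefore reflect array-to-array spread that could be purely technical.

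Promoter sequence is shown first for the 4 measured inducible genes. PSMG4 was added because its window holds the run of letters that recurs in 3 of those 4. The sequences are the RefSeq reference (GRCh38.p14), 100 bases before to 15 after an annotated transcription start, read 5′ to 3′ along the gene. Capitals mark a match to GAAA, any 2 bases, GAAA, the form of the interferon-stimulated response element (ISRE), or to TTCNNNGAA, the form of the interferon-gamma-activated site (GAS).
PSMB8 (chr6:32844033-32844147, minus strand): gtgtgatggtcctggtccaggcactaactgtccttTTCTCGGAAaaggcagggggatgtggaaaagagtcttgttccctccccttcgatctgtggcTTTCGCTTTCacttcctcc
PSMB10 (chr16:67936836-67936950, minus strand): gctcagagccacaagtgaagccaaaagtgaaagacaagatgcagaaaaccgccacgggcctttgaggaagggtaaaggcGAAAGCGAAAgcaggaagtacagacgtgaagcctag
PSME1 (chr14:24136094-24136208, plus strand): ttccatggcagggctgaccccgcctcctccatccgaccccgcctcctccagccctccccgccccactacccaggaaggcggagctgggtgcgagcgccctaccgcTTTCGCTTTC
PSMB9 (chr6:32854092-32854206, plus strand): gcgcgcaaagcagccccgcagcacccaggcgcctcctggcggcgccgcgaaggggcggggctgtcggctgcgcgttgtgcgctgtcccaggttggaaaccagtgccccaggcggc
PSMG4 (chr6:3258847-3258961, plus strand): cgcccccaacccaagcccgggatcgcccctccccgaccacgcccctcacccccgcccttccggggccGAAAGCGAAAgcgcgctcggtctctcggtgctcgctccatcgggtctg

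The letters GAAAGCGAAA, or TTTCGCTTTC where the match lies on the complementary strand, occur in the windows of PSMB8, PSMB10, PSME1 and PSMG4. In PSMB8 the run spans positions -4 to 6 around the shown start, which is 1 of its 2 RefSeq starts, and a GAS-type run lies at -65 to -57. It lies at -21 to -12 in PSMB10, at 6 to 15 in PSME1 and at -33 to -24 in PSMG4. The shown start of PSMG4 lies within the gene, which is annotated from 3254404 to 3268049 on the plus strand. PSMB9 had no match to either motif in its window.

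The search covered both strands of 300 bases, 250 before to 50 after each start, for 27305 genes, and 36 of the 42 measured members had such a window. The ISRE form was present in 4.38% of all these genes and in 6 of the 36 members, namely 3 of 4 inducible genes, 2 of 22 constitutive ones (PSMA4 and PSMB4) and PSMG4. The GAS form was present in 9.38% of all genes and in 8 of 36 members. The form of NF-kappaB sites (GGGA, any 4 bases, CC) was present in 29% of all genes, in 9 of 36 members and in 0 of the 4 inducible genes, and the form TGACNNNGC of antioxidant response elements, which NRF1 and NRF2 bind, in 16.1% of all genes and in 13 of 36 members. Matches to different motifs overlapped once, in PSMD3 (1 case). Each match describes letters in a window, and binding was not measured.

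Some facts of the whole series bear on every value below. None of 5 USP48 probe sets was called higher in the arrays labelled USP48: the brightest differed by -0.13 on the log2 scale and 2 others were called lower, at -0.63 and -0.82, so the groups are named by their labels, and whether these probe sets can detect the transgene was not tested. Nor was it tested whether the labels of the groups were exchanged, which would turn the sign of every difference below. The 18 hybridization controls, labelled RNAs added to each sample before hybridization, averaged 10.09 ± 0.10 in USP48-labelled arrays and 9.79 ± 0.04 in empty vector arrays (log2, SD, n = 3 each, exact permutation p = 0.1, the smallest possible for 3 against 3). Scaling on them shifts every gene down by 0.29 and the median over all genes to -0.24, against 0.05 as deposited. The 5′ minus 3′ difference of GAPDH, a sign of RNA integrity, was -0.51, -0.45 and -1.31 in USP48-labelled arrays and -0.32, -0.37 and -0.44 in empty vector arrays. Every USP48-labelled array thus lay below every empty vector array (exact permutation p = 0.1, the smallest possible), and USP48-labelled replicate 3 stood lowest. The same difference of ACTB was -3.88, -3.44 and -4.14 in USP48-labelled arrays. In empty vector arrays it was -3.26, -3.42 and -3.70, with overlap (exact permutation p = 0.2). What part this had in the differences between the groups was not tested. Of the labelled tissue's markers, keratins KRT8 (10.57 and 10.88) and KRT18 (11.80 and 11.79) were bright in the USP48-labelled and empty vector means. The epithelial markers KRT19 (2.81 and 2.81) and CDH1 (2.57 and 2.95) and the hepatocyte markers ALB (2.14 and 2.07) and APOA1 (3.05 and 3.06) were dim. TTR, the brightest hepatocyte marker, was at 5.31 and 5.11, where the median of all gene values was 4.91. The test was passed by 0 of 6 hepatocyte markers. Among markers of leukocytes, cells rich in immunoproteasome, PTPRC was the dimmest at 1.88 ± 0.07 and 1.96 ± 0.15 (USP48-labelled and empty vector, SD, n = 3 each). The brightest of them was CD4 at 5.13 and 5.04, and 0 of 9 passed the test. Of 5 epithelial markers 2 fell (EPCAM and CDH1), and of 3 mesenchymal markers FN1 rose while VIM and CDH2 fell.

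In the USP48-labelled cells the inducible catalytic subunits PSMB9, PSMB10 and PSMB8 and the constitutive PSMB7 showed the widest differences of the family, all of them higher. In limma's test, adjusted by Benjamini-Hochberg over all genes with a threshold of 0.05, 11 of 42 genes rose (26.2%) and 0 fell, where 15.7% of all genes rose and 14.1% fell. Almost all members are bright, and among 5052 genes with a mean of 7 or more on the log2 scale, a background chosen after seeing the data, 23.7% rose and 24.6% fell. The share of members that rose was thus near that of bright genes in general. The difference was positive in 34 of 42 members (81.0%), against 59.1% of all genes and 49.2% of the bright ones. The members' median difference was 0.17, against 0.05 over all genes and -0.01 over the bright ones. The 2 groups of arrays did not overlap in 21 members that were higher and in 1 that was lower, PSME4, where 23.8% of all genes were higher without overlap and 19.1% lower. Among bright genes 32.6% were higher without overlap. The count of members that rose was 18 with an intensity trend and robust prior in limma, against 16.4% of all genes, 7 at a threshold of 0.01, against 9.79% of all genes, and 7 without empty vector replicate 2, against 12% of all genes.

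**Figure D1:**
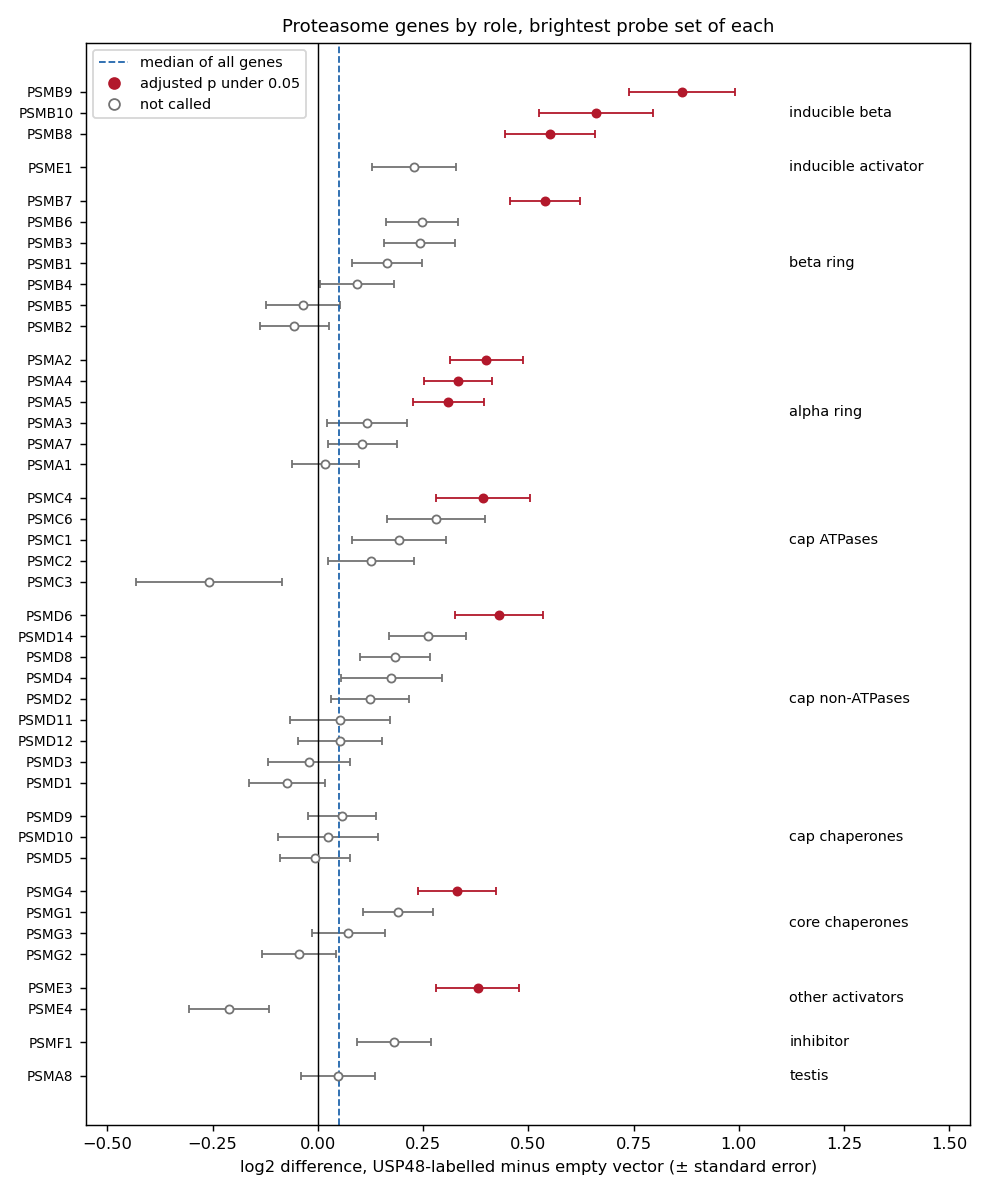
Log2 difference (USP48-labelled minus empty vector, 3 arrays each) of the 42 proteasome genes, each with its standard error from limma, sorted by role, with filled points for adjusted p under 0.05. The 3 inducible beta subunits and PSMB7 lie at 0.54 or above, 11 points are filled and all of them are positive, and the dashed line is the median of all genes at 0.05.

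The inducible catalytic subunits rose together in the deposited values. PSMB9, which replaces PSMB6, had log2 RMA values of 10.38, 10.69 and 10.17 in USP48-labelled arrays, against 9.51, 9.66 and 9.48 in empty vector arrays. Every USP48-labelled array lay above every empty vector array. The means were 10.41 ± 0.26 and 9.55 ± 0.10 (USP48-labelled and empty vector, SD, n = 3 each), a difference of 0.87 ± 0.13 (SE), or 1.82-fold (limma adjusted p = 0.00044). This was the widest difference among the 42 members. In bulk RNA a change in the share of cells that express a gene and a change in RNA per cell cannot be told apart.

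PSMB10, the counterpart of PSMB7, had values of 8.28, 8.39 and 7.82 in USP48-labelled arrays, against 7.53, 7.57 and 7.40 in empty vector arrays. The groups did not overlap, although USP48-labelled replicate 3 lay nearer to the empty vector arrays than to its own group's other 2. The difference was 0.66 ± 0.14 (SE), or 1.58-fold (limma adjusted p = 0.0040).

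For PSMB8, which replaces PSMB5, the values were 9.79, 9.91 and 9.53 in USP48-labelled arrays, against 9.19, 9.27 and 9.12 in empty vector arrays. Again all 3 USP48-labelled arrays were the higher ones. The difference was 0.55 ± 0.11 (SE), or 1.47-fold (limma adjusted p = 0.0027).

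PSME1, a subunit of the interferon-inducible activator ring, had values of 10.39, 10.50 and 10.19 in USP48-labelled arrays, against 10.13, 10.21 and 10.05 in empty vector arrays. Here the groups overlapped, because USP48-labelled replicate 3 lay below empty vector replicate 2. The difference of 0.23 ± 0.10 (SE) did not pass the test (limma adjusted p = 0.115, 95% interval 0.01 to 0.45 before adjustment). Without USP48-labelled replicate 3 it was 0.31 with an adjusted p of 0.034 in limma, and that array also had the GAPDH difference of -1.31, whose part in this was not tested.

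Within each group the 4 inducible genes kept one order of arrays. Replicate 2 was highest and replicate 3 lowest for PSMB8, PSMB9, PSMB10 and PSME1, in the USP48-labelled arrays and in the empty vector arrays alike. The same arrays were the highest and the lowest of both groups for NLRC5, the transactivator of class I genes, and for IRF9, a transcription factor of the interferon response. TAP1, TAP2 and IRF1 did not keep the order in full: replicate 1 was lowest of the empty vector arrays for TAP1 and highest for TAP2, and lowest of the USP48-labelled arrays for IRF1. Of the marker genes, KRT8, VIM and FN1 also kept the order in both groups, while KRT18, EPCAM and CDH2 did not. Replicate 3 was lowest of both groups in the GAPDH and ACTB differences given above as well. The share of all genes with this order was not counted, so it cannot be read as a trait of the inducible genes. Replicates of one number are not stated to share a culture or a day.

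**Figure D2:**
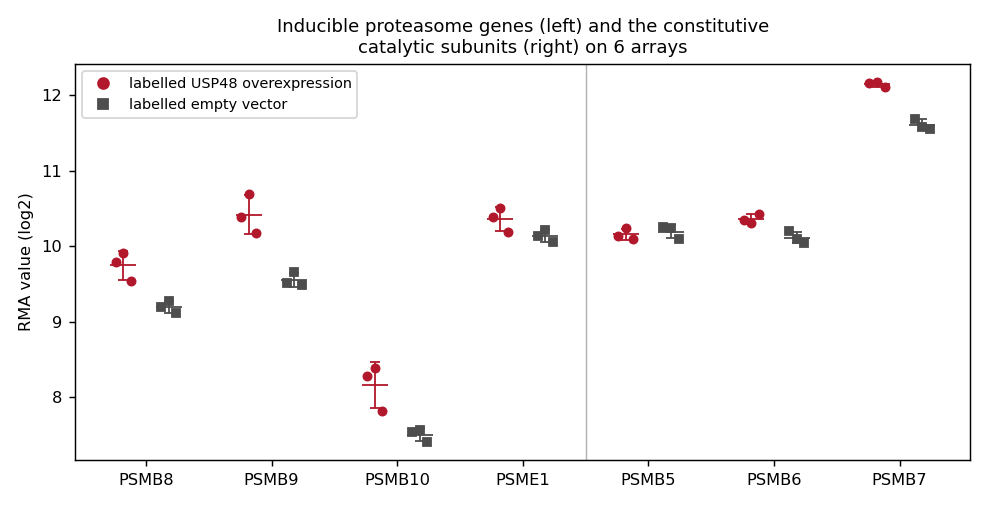
Log2 RMA value in each array of the inducible genes and of the constitutive catalytic subunits, USP48-labelled arrays as circles left of empty vector arrays as squares, with mean and SD (n = 3 each). PSMB8, PSMB9, PSMB10, PSMB6 and PSMB7 show no overlap between the groups, while PSME1 and PSMB5 do overlap.

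The constitutive catalytic subunits differed among themselves. PSMB5, which carries the chymotrypsin-like site, had values of 10.14, 10.24 and 10.09 in USP48-labelled arrays, against 10.25, 10.23 and 10.09 in empty vector arrays. The groups were interleaved, and the difference was -0.04 ± 0.09 (SE, limma adjusted p = 0.80), with a 95% interval of -0.23 to 0.16. PSMB6, which carries the caspase-like site, had values of 10.34, 10.31 and 10.43 in USP48-labelled arrays, against 10.19, 10.10 and 10.04 in empty vector arrays. Its groups did not overlap, but the difference of 0.25 ± 0.09 (SE) just missed the threshold (limma adjusted p = 0.0503).

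PSMB7, which carries the trypsin-like site, was the exception among the constitutive beta subunits. Its values were 12.16, 12.17 and 12.11 in USP48-labelled arrays, against 11.69, 11.58 and 11.55 in empty vector arrays. All USP48-labelled arrays were higher by more than the spread within either group, with a difference of 0.54 ± 0.08 (SE), or 1.45-fold (limma adjusted p = 0.00065). A dimmer probe set of PSMB7 went the other way, as described below with the other probe sets.

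Subtracting each constitutive catalytic subunit from its inducible counterpart within an array gives a measure that no scaling of whole arrays can change. PSMB8 minus PSMB5 was -0.35, -0.33 and -0.56 in USP48-labelled arrays, against -1.07, -0.96 and -0.98 in empty vector arrays. PSMB9 minus PSMB6 was 0.04, 0.38 and -0.26 in USP48-labelled arrays, against -0.68, -0.44 and -0.57 in empty vector arrays. In both pairs every USP48-labelled array lay above every empty vector array, by 0.59 and 0.62 on average, or 1.5-fold and 1.53-fold. Each gave an exact two-sided permutation p of 0.1, the smallest that 3 against 3 arrays allow, and 0.15 after adjustment over the 3 pairs, so neither can pass the threshold in this design.

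In the third pair the groups overlapped. PSMB10 minus PSMB7 was -3.88, -3.78 and -4.29 in USP48-labelled arrays, against -4.16, -4.01 and -4.14 in empty vector arrays. The mean difference was 0.12 (exact permutation p = 0.5, also 0.5 after adjustment), with PSMB7 higher along with PSMB10. USP48-labelled replicate 3 alone made the overlap, and without it the difference was 0.27 (exact permutation p = 0.1, the smallest possible). With PSMB7 averaged over both its probe sets the difference was 0.92 (exact permutation p = 0.1), so this pair depends on 1 array and on the choice of probe set. The probe sets of different genes are not on one scale, so only the change of each difference between groups can be read, not its sign.

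**Figure D3:**
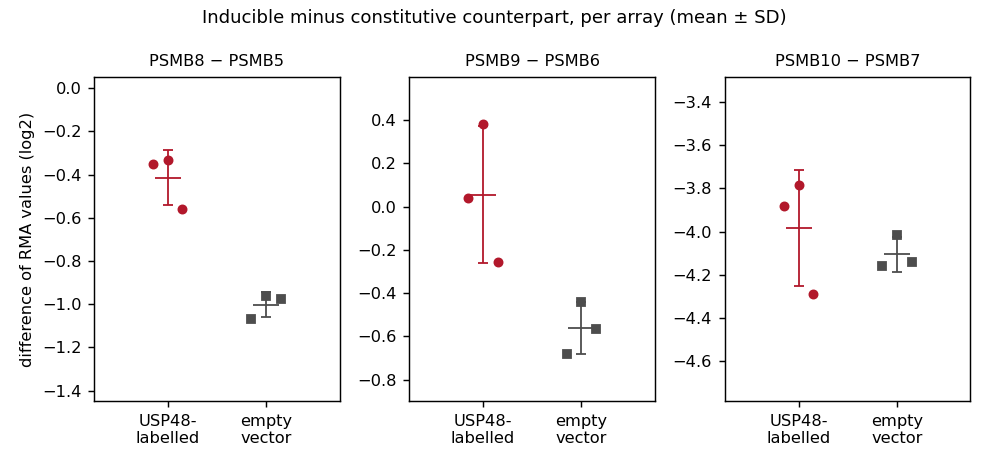
Difference of log2 RMA values within each array between an inducible catalytic subunit and its constitutive counterpart, with mean and SD (n = 3 arrays a group); the 3 panels have their own axes of equal span. The groups are apart in the PSMB8 and PSMB5 pair and in the PSMB9 and PSMB6 pair, and overlap in the PSMB10 and PSMB7 pair.

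Taken as lists, 3 of the 4 inducible genes rose with a median difference of 0.61, and 6 of the 27 measured constitutive subunits rose (22.2%) with a median of 0.16 and 0 fell. The remaining 11 members (activators, inhibitor, chaperones and a testis subunit) held 2 that rose, with a median of 0.06. The constitutive share is close to the 23.7% among bright genes. The counts by role below are of few genes, and no role was tested as a set. Beside them stand the shares that rose, 15.7% of all genes and 23.7% of bright genes. Higher without overlap were 23.8% of all genes and 32.6% of bright genes.

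In the alpha ring, which gates the core, 3 of 6 measured subunits rose, where 23.7% of bright genes did. PSMA2 had values of 11.75, 11.63 and 11.73 in USP48-labelled arrays, against 11.41, 11.22 and 11.29 in empty vector arrays. It differed by 0.40 ± 0.09 (SE, limma adjusted p = 0.0056) with no overlap, or 1.32-fold. Averaged with its other probe set, which was at -0.21, PSMA2 was no longer called (0.093, limma adjusted p = 0.48). PSMA4 had values of 11.14, 11.13 and 11.10 in USP48-labelled arrays, against 10.86, 10.74 and 10.78 in empty vector arrays, with a difference of 0.33 ± 0.08 (SE, limma adjusted p = 0.0098).

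PSMA5 was at 11.60, 11.55 and 11.59 in USP48-labelled arrays, against 11.36, 11.26 and 11.19 in empty vector arrays. Its groups did not overlap either, and the difference was 0.31 ± 0.08 (SE, limma adjusted p = 0.018). The call was lost when any of 3 arrays was left out, with adjusted p up to 0.066 in limma, or when both its probe sets were averaged (0.046). PSMA1, PSMA3 and PSMA7 differed by 0.02 to 0.12 and did not pass the test.

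Among the structural beta subunits none passed the test. PSMB3 (0.24, limma adjusted p = 0.053) came nearest, followed by PSMB1 (0.16) and PSMB4 (0.09), and PSMB2 differed by -0.06. The groups of arrays did not overlap for PSMB1 and PSMB3.

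Of the cap's ATPases, which unfold the substrate, 1 of 5 rose. PSMC4 had values of 9.50, 9.70 and 9.38 in USP48-labelled arrays, against 9.29, 9.13 and 8.98 in empty vector arrays. All USP48-labelled arrays were higher, by 0.39 ± 0.11 (SE, limma adjusted p = 0.022), but leaving out any of 4 arrays ended the call, with adjusted p up to 0.087 in limma. PSMC6 (0.28), PSMC1 (0.19) and PSMC2 (0.13) were positive without passing. PSMC3 had the lowest difference of all members, -0.26 ± 0.17 (SE, limma adjusted p = 0.31), with a wide spread of 9.29, 9.61 and 8.84 in USP48-labelled arrays against 9.63, 9.61 and 9.28 in empty vector arrays.

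Of the cap's non-ATPase subunits 1 of 9 rose. PSMD6, a subunit of the cap's lid, had values of 10.18, 10.21 and 9.94 in USP48-labelled arrays, against 9.82, 9.59 and 9.63 in empty vector arrays. The groups did not overlap and differed by 0.43 ± 0.10 (SE, limma adjusted p = 0.0096), or 1.35-fold. Averaging both of its probe sets ended the call (difference 0.11, limma adjusted p = 0.41). PSMD14, the deubiquitinase of the lid, differed by 0.26 (limma adjusted p = 0.055), and PSMD8 by 0.18, both without overlap. The ubiquitin receptor PSMD4 (0.17), the scaffold subunits PSMD1 (-0.07) and PSMD2 (0.12), and the lid subunits PSMD3 (-0.02), PSMD11 (0.05) and PSMD12 (0.05) had overlapping groups.

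Of the 2 alternative activators 1 rose. PSME3, which forms a nuclear activator ring, had values of 8.44, 8.50 and 8.37 in USP48-labelled arrays, against 8.23, 7.99 and 7.94 in empty vector arrays. It was higher in every USP48-labelled array, by 0.38 ± 0.10 (SE, limma adjusted p = 0.014), and lost the call without either of 2 arrays (adjusted p up to 0.059 in limma) and when its 4 probe sets were averaged (0.10, limma adjusted p = 0.34). PSME4, a large single-chain activator, had values of 7.47, 7.73 and 7.69 in USP48-labelled arrays, against 7.90, 7.80 and 7.82 in empty vector arrays. It was the single member lower in every USP48-labelled array, and its difference of -0.21 ± 0.09 (SE) did not pass the test (limma adjusted p = 0.12).

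The inhibitor PSMF1 differed by 0.18 ± 0.09 (SE, limma adjusted p = 0.15) without overlap. None of the 3 members among the chaperones of the cap's base, PSMD5 (-0.01), PSMD9 (0.06) and PSMD10 (0.02), passed the test. Of the 4 chaperones that assemble the core, PSMG4 rose and PSMG1 (0.19), PSMG3 (0.07) and PSMG2 (-0.04) did not pass. PSMG4, whose promoter window holds the same GAAAGCGAAA run as PSMB10, had values of 10.01, 9.78 and 9.82 in USP48-labelled arrays, against 9.56, 9.47 and 9.59 in empty vector arrays. Its groups did not overlap and its difference was 0.33 ± 0.09 (SE, limma adjusted p = 0.020), a call that leaving out any of 3 arrays ended (adjusted p up to 0.080 in limma), as did averaging its 5 probe sets (0.069). PSMA8, the alpha subunit of the testis, was dim at 1.24 ± 0.12 in USP48-labelled arrays and 1.19 ± 0.02 in empty vector arrays (SD, n = 3 each), and is the one member below a mean of 7.

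Scaling on the hybridization controls changes the count but not the order of the members. Under it 1 member, PSMB9, was called higher and 7 were called lower (PSMB2, PSMB5, PSMC3, PSMD1, PSMD5, PSME4 and PSMG2), where 4.84% of all genes were higher and 37.9% lower. PSMB10 (0.37, limma adjusted p = 0.077) and PSMB8 (0.26, limma adjusted p = 0.13) lost their calls. The median was then 0.31 for the inducible genes and -0.13 for the constitutive subunits. Which scaling is nearer to the amount of RNA per cell was not tested.

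Where a proteasome gene has several probe sets, they often disagreed. Of 22 members with several probe sets, 17 had another probe set whose difference had the opposite sign to the brightest. Tested over all 54613 probe sets, where 10.6% were called higher and 13.8% lower, the 42 brightest gave 11 higher and 0 lower, and the other 39 gave 5 higher and 8 lower. Those 39 were dimmer, with a median level of 4.77 against 9.89, and their median difference was -0.08 against 0.17. Over all genes, 10.4% of probe sets other than the brightest were called higher and 15.4% lower, a comparison chosen after seeing the data. With the mean of all probe sets standing for each gene, 9 members rose and 3 fell (PSMB2, PSMD11 and PSMD12), where 13.8% of all genes rose and 13.6% fell. Of the 11 that rose on their brightest probe set, 5 were still called (PSMA4, PSMB8, PSMB9, PSMB10 and PSMC4, each with 1 probe set), and 4 were newly called (PSMB3, PSMB6, PSMD5 and PSMD14). The calls were lost for PSMB7 (-0.26), PSMA2 (0.093), PSMA5 (0.046), PSMD6 (0.11), PSME3 (0.10) and PSMG4 (0.069).

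The widest of these differences was in PSMD12. Its dimmer probe set 202353_s_at had values of 5.20, 4.78 and 5.48 in USP48-labelled arrays, against 7.28, 6.95 and 7.01 in empty vector arrays, a difference of -1.93 (limma adjusted p = 1.6e-05). Its brightest probe set 202352_s_at was at 9.61, 9.64 and 9.65 in USP48-labelled arrays, against 9.78, 9.45 and 9.52 in empty vector arrays. The first was lower in every USP48-labelled array, whereas the second overlapped.

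PSMB2 (probe set 238425_at, -1.45), PSMB7 (244801_at, -1.05) and PSMD11 (208776_at, -1.0) also had dim probe sets called lower. That of PSMB7 had values of 3.06, 3.72 and 3.62 in USP48-labelled arrays, against 4.56, 4.41 and 4.59 in empty vector arrays, while the bright probe set of PSMB7 rose. The 4 remaining lower calls were in PSMC2 (-0.69), PSMA3 (-0.38), PSMD4 (-0.37) and PSME3 (-0.33), and PSMA3, PSMD4 and PSME3 had further probe sets called higher, at 0.64, 0.36 and 0.44. Which transcripts these probe sets detect was not tested. PSMB8, PSMB9, PSMB10 and PSME1 have 1 probe set each, so their values have no such second reading. The brightest probe sets of PSMA1, PSMA7, PSMD4 and PSME3 are of the type (suffix x) that may also detect related sequences.

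**Figure D4:**
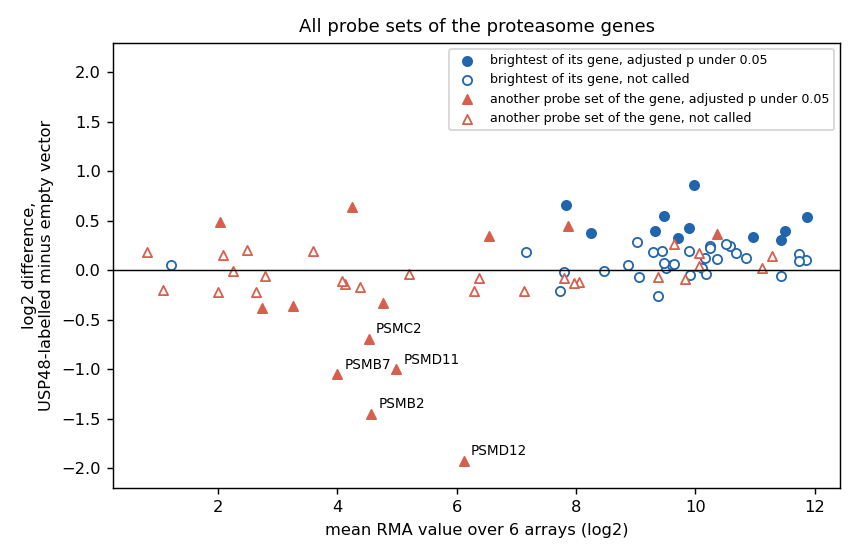
Log2 difference (USP48-labelled minus empty vector) against mean log2 RMA value over 6 arrays for all 81 probe sets of the proteasome genes, with circles for the brightest of each gene, triangles for the others and filled symbols for adjusted p under 0.05. The 11 called circles all lie above 0, and the 8 triangles called lower all have a mean below 7, with PSMD12 lowest at -1.93.

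Genes that work with the immunoproteasome in class I presentation, or that regulate it, were described as a list chosen with earlier results known. Of 8 measured, 6 rose and 0 fell, with a median difference of 0.93, where 15.7% of all genes and 23.7% of bright genes rose. Under scaling on the hybridization controls 5 of the 6 stayed higher, B2M being the exception (0.14), and 1 was called lower (TAPBP). Among all genes 4.84% were then higher and 37.9% lower. In the deposited values the brightest probe set of TAPBP, which assists peptide loading, was lower in every USP48-labelled array without passing the test (-0.24, limma adjusted p = 0.074). Its dimmer probe sets went the other way, at 0.44, called higher (limma adjusted p = 0.0059), and at 0.21, not called. Dimmer probe sets were also called higher for IRF1, B2M and ERAP1, while none of those of TAP2 (0.11 to 0.23) was called. TAP1, a peptide transporter subunit encoded beside PSMB9, had values of 10.18, 10.43 and 9.98 in USP48-labelled arrays, against 8.80, 8.89 and 8.83 in empty vector arrays (difference 1.36, limma adjusted p = 1.1e-05). IRF1, a transcription factor for class I and immunoproteasome genes, differed by 1.65 and was at 7.95, 8.19 and 8.0 in USP48-labelled arrays, against 6.37, 6.49 and 6.31 in empty vector arrays. IRF9 (1.23) and NLRC5 (0.93) were also higher in every USP48-labelled array. The differences of PSMB8, PSMB9 and PSMB10 were smaller than those of TAP1, IRF1, IRF9, NLRC5 and TAP2 (0.92). They were larger than those of B2M (0.43), ERAP1 (0.26) and TAPBP (-0.24). Neither contrast between genes was tested.

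NRF1, encoded by NFE2L1, is the transcription factor known to raise proteasome subunit genes when proteasome activity is short. Of 6 measured genes of this circuit, also listed with earlier results known, 5 rose and 0 fell, with a median of 0.50. Among all genes 15.7% rose, and among bright genes 23.7%. Under scaling on the hybridization controls 2 of the 5 (NFE2L1 and MAFF) stayed higher and 1 of the 6 was called lower (VCP). That scaling left 4.84% of all genes higher and 37.9% lower. NFE2L1 had values of 9.44, 9.68 and 9.61 in USP48-labelled arrays, against 8.72, 8.98 and 8.96 in empty vector arrays (difference 0.69, limma adjusted p = 0.00051). MAFF, a small MAF partner of such factors, differed by 2.44 and was at 9.84, 9.89 and 9.85 in USP48-labelled arrays, against 7.39, 7.24 and 7.63 in empty vector arrays. NGLY1, the enzyme that deglycosylates NRF1, differed by 0.54, MAFG by 0.45 and NFE2L2, which encodes NRF2, by 0.44. For NGLY1 the difference was -0.11 when all its probe sets were averaged. Its dimmer probe set was called lower at -0.75 (limma adjusted p = 0.0002), and that of VCP at -0.42 (limma adjusted p = 0.0087). Dimmer probe sets of NFE2L1, MAFF and NFE2L2 were called higher.

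Of 15 measured maturation factors, ubiquitin receptors and deubiquitinases that join the proteasome, 8 rose and 2 fell, with a median of 0.26. Among all genes 15.7% rose and 14.1% fell, and among bright genes 23.7% rose and 24.6% fell. Under scaling on the hybridization controls 1 of the 8 (UBQLN1) stayed higher, 5 of the 15 were called lower and the median was -0.031. Among all genes that scaling gave 4.84% higher and 37.9% lower, with a median of -0.24. Leaving out any of the 6 arrays ended the call of UCHL5, and any of 5 that of AKIRIN2. Any of 4 ended those of SEM1 and of UBQLN4, which fell (-0.27). TXNL1 lost its call without either of 2 arrays and ZFAND5 without 1. UBE3C, a ubiquitin ligase bound to the proteasome, had values of 7.19, 7.17 and 7.41 in USP48-labelled arrays, against 8.15, 8.13 and 8.25 in empty vector arrays. It was lower in every USP48-labelled array, with a difference of -0.92 (limma adjusted p = 4.0e-05). UBQLN1, a shuttle for ubiquitinated substrates, differed by 0.64 on its brightest probe set and by -0.33 on another, which was called lower. The dimmer probe sets of UBE3C differed by -0.0081 to 0.30, and none of them was called. Dimmer probe sets were called lower for USP14 (-0.97 and -0.41), TXNL1 (-0.86) and RAD23B (-0.51). For POMP, ZFAND5, UCHL5 and AKIRIN2 dimmer probe sets were called higher. In that test over all probe sets, the brightest of UCHL5 (limma adjusted p = 0.057) and of AKIRIN2 (limma adjusted p = 0.062) were not called. POMP, which assists maturation of the core, differed by 0.48 and was at 11.62, 11.51 and 11.54 in USP48-labelled arrays, against 11.12, 10.99 and 11.10 in empty vector arrays. ADRM1, a ubiquitin receptor of the cap, differed by 0.42.

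**Figure D5:**
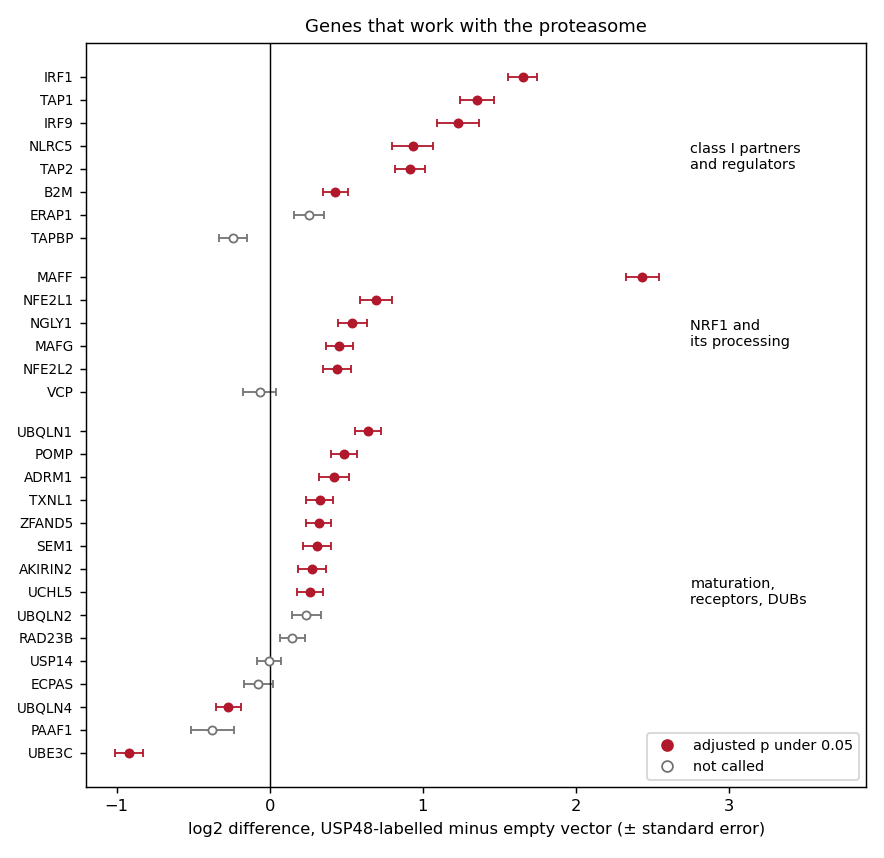
Log2 difference (USP48-labelled minus empty vector, 3 arrays each, with standard error) of the genes listed with the proteasome: class I partners and regulators, the NRF1 circuit, and maturation factors, receptors and deubiquitinases. MAFF at 2.44 and IRF1 at 1.65 lie farthest above 0, and UBE3C at -0.92 farthest below.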

How the data were processed

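RNA of SNU-449 cells was hybridised to 6 Affymetrix arrays. The deposited table holds log2 signals per probe set; per the submitters' processing notes RMA was used, and its settings and version, and the build, are not given. RMA equalises signal distributions between arrays, so total RNA per cell cannot be compared. Values reach down to 0.19, lower than usual for RMA, and the background correction is unknown. Of 54675 probe sets, 41091 named 1 symbol in the platform annotation, 1801 several and 11721 none.

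A gene's probe set of highest mean stood for it, with no further normalization or filter. Groups, taken from the array titles, were tested by limma 3.58.1 (R 4.3.3, two-sided moderated test adjusted by Benjamini-Hochberg over 19775 genes), and subunit pairs by an exact permutation test. The number of arrays, 3 a group, limits the precision. The members and lists were chosen with earlier results of these data known. Named in full were the inducible genes, their constitutive counterparts and every member past the threshold, and of each further list up to 4 genes past it with the widest difference. The other members are given more briefly, and probe sets beyond the brightest were named after their values were seen. Alternatives covered normalization, scaling, variance model, dim genes, probe set choice, the replicate block, each array left out and a stricter threshold. The test was checked on simulated data, where it recovered 38% of log2 changes of 0.5 and 96% of changes of 1. A gene that did not pass is thus not shown to be unchanged. Promoter windows came from RefSeq (GRCh38.p14). Plots used matplotlib 3.10.9 under Python 3.11.15.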

Additional observations from a re-analysis of the deposited data

How the results depend on the processing

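Of the 11 members that rose, 7 kept an adjusted p under the threshold of 0.05 with every single array left out. PSMC4, PSMA5, PSMG4 and PSME3 did not. Leaving out 1 array gave 7 to 13 members higher (7 without empty vector replicate 2, 13 without USP48-labelled replicate 3) and 0 lower. Among all genes 12% were higher and 11% lower without empty vector replicate 2, against 15.1% and 13.6% without USP48-labelled replicate 3. Of the members, 3 to 4 inducible and 4 to 8 constitutive genes were higher, with medians of 0.51 to 0.74 and 0.12 to 0.21. The replicate number as a block gave 11 members higher and 0 lower and changed no call of a member. With it 15.4% of all genes were higher and 14.1% lower. Deviations of same-numbered arrays correlated across genes at 0.0042, 0.1656 and 0.015, so the numbers are not shown to pair the arrays. The intensity trend with a robust prior gave 18 members higher, 11 of them constitutive, where 16.4% of all genes were higher. A threshold of 0.01 left 7 members, where 9.79% of all genes were higher. The mean of all probe sets gave 9 higher and 3 lower (PSMB2, PSMD11 and PSMD12), all 3 constitutive, where 13.8% of all genes rose and 13.6% fell. It kept 5 of the 11 calls, all in genes with 1 probe set, whose values averaging cannot change. Every called member with several probe sets lost its call. Scaling on the hybridization controls, which subtracts 1 amount per array from every gene, gave 1 member higher and 7 lower. Over all genes it gave 4.84% higher and 37.9% lower. It left 1 inducible and 0 constitutive genes higher and 4 constitutive genes lower. The medians were 0.31 for inducible genes, -0.13 for constitutive genes and -0.24 for all genes. The sign turned under that scaling for PSMA1 (-0.28), PSMA3 (-0.18), PSMA7 (-0.19), PSMB1 (-0.13), PSMB3 (-0.052), PSMB4 (-0.20), PSMB6 (-0.046), PSMA8 (-0.25), PSMC1 (-0.10), PSMC2 (-0.17), PSMC6 (-0.014), PSMD2 (-0.17), PSMD4 (-0.12), PSMD8 (-0.11), PSMD11 (-0.24), PSMD12 (-0.24), PSMD14 (-0.033), PSMD9 (-0.24), PSMD10 (-0.27), PSME1 (-0.065), PSMF1 (-0.11), PSMG1 (-0.10), PSMG3 (-0.22), UCHL5 (-0.031) and AKIRIN2 (-0.018), under the mean of all probe sets for PSMA1 (-0.011), PSMB7 (-0.26), PSMC2 (-0.21), PSMD11 (-0.47), PSMD12 (-0.94), PSMD5 (0.24), PSMD9 (-0.057), PSMD10 (-0.054), TXNL1 (-0.15) and NGLY1 (-0.11), and under quantile normalization for PSMA1 (-0.027) and PSMD10 (-0.026). With 1 array left out it turned for PSMD11 (-0.072 to 0.13), PSMD10 (-0.092 to 0.13), PSMD3 (-0.092 to 0.046), PSMD5 (-0.038 to 0.026), PSMG2 (-0.093 to 0.015) and PSMD12 (-0.016 to 0.15). Of these genes PSMB7, UCHL5, AKIRIN2, TXNL1 and NGLY1 had passed the threshold. The causes of these changes were not tested, apart from the shift by scaling. Signal over background was not known for these values, which limits what dim probe sets can show.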
